A study of Homo sapiens with 10 samples.

Results

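DNA replication in human cells is run by a set of genes that load the replicative helicase onto origins, fire those origins and copy both strands at the fork. The 51 genes described here hold the origin and fork machinery: 14 genes of origin licensing, 8 of origin firing, 10 of the replicative polymerases, 12 of the sliding clamp, the clamp loader, Okazaki fragment maturation and single-stranded DNA binding, and 7 of fork protection, DNA untangling and chromatin assembly. They were chosen by symbol, and each gene was read from the probe set with the highest mean log2 signal over the 10 arrays among probe sets annotated with that symbol alone. All 51 were on the array, out of 19775 genes with such a probe set, and all 51 were among the 12342 genes bright enough to be tested.

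In G1 phase the origin recognition complex (ORC), CDC6 and CDT1 load the hexamer of MCM2 to MCM7 onto DNA, and geminin (GMNN) holds CDT1 in check afterwards. The kinase CDC7 with its partner DBF4, together with CDC45, the GINS complex and MCM10, turns the loaded hexamer into a moving helicase at the start of S phase. Polymerase alpha with primase then lays down primers, polymerases epsilon and delta extend the leading and lagging strands on the PCNA clamp, and the FEN1 nuclease and the ligase LIG1 join Okazaki fragments. Many of these genes are transcribed in late G1 and S phase through E2F factors, which are held off by the retinoblastoma protein family in cells deprived of growth factors.

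The RNA came from LoVo cells (CCL-229), a line established from a human colorectal adenocarcinoma. Asymmetric dimethylarginine (ADMA) is a methylated arginine released from degraded proteins that inhibits nitric oxide synthases, and the study asked how it changed gene expression in LoVo cells kept without serum. The arrays held 4 cultures given serum-free DMEM with 10 μM ADMA (called ADMA-treated cells), 3 kept in serum-free DMEM alone (serum-starved cells) and 3 kept in DMEM with 10% fetal bovine serum (control cells), each after 96 h. No group had ADMA in the presence of serum, so every ADMA-treated culture was also serum-starved. The labels call the arrays of a group biological replicates, but nothing says how separate the cultures were, so p-values measure the spread between these arrays of 1 cell line. In RNA from a whole culture, fewer cells in S phase and less RNA of a gene per cell cannot be told apart.

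Signals are MAS 5.0 intensities on a linear scale, and every array had been scaled to a 2% trimmed mean of about 500.1. Median signals nevertheless differed, with the ADMA-treated arrays at 91.9 to 98.1, the serum-starved arrays at 87.5 to 90.7 and the control arrays at 60.7 to 73.1. The 28S ribosomal RNA 5′ control probe set gave 795 to 1052 on ADMA-treated, 1345 to 2014 on serum-starved and 501 to 634 on control arrays. For beta-actin the signal at the 3′ end over that at the 5′ end was 1.02 to 1.05 on ADMA-treated, 1.13 to 1.23 on serum-starved and 1.01 to 1.08 on control arrays. For GAPDH that ratio was 0.855 to 0.896 on ADMA-treated, 0.861 to 0.974 on serum-starved and 0.857 to 0.931 on control arrays. Medians and the 28S signal thus differed between all 3 groups without overlap. The beta-actin ratio set only the serum-starved arrays apart, and the GAPDH ratio overlapped between all groups. The part of these measures in the results below was not tested. All 10 colon epithelium markers passed the filter on low signal, with summed signals of 139897 to 160494 on ADMA-treated, 114120 to 132799 on serum-starved and 81424 to 83052 on control arrays. They did not move together. By the calls defined below, 4 were higher and 3 lower (CDX1, CDX2 and GPA33) in serum-starved than in control cells (30.3% and 27.3% of all genes tested). With ADMA against serum-starved cells, 6 were higher and 1 lower (CDH1), against 15.7% and 13.8%. Of the markers of other cells, 3 of 7 for fibroblasts and 1 of 4 for endothelium passed the filter. So did 1 of 3 on the array for leukocytes and 1 of 2 on the array for erythroid cells and serum protein. Fibroblast markers summed to 680.4 to 907 on ADMA-treated, 788 to 954 on serum-starved and 818 to 978 on control arrays, and PDGFRB, PTPRC and CD14 lay under the background level on every array. Of these, LUM was called, at 1.47 higher on the log2 scale in serum-starved than in control cells and -0.90 in ADMA-treated against serum-starved cells. No member lay under the background level on any array.

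Nearly the whole set was lower in serum-starved cells. With limma, an adjusted p (Benjamini-Hochberg, over all 12342 genes) under 0.01 and a change of at least 1.2-fold, called a change from here on, 48 of 51 members were lower in serum-starved than in control cells, where 27.3% of all genes tested were called lower. No member was called higher, against 30.3% of all genes, and none had a positive difference, so the count at an unadjusted p under 0.05 was also 0. The 3 members not called were ORC3, RFC1 and CLSPN. The member differences ran from -2.71 to -0.12 on the log2 scale with a median of -1.57, and the median over all genes tested was 0.07. Arrays of the groups did not overlap for 49 members, all lower in serum-starved cells, against 33.3% of all genes tested.

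Most of the set was higher in ADMA-treated than in serum-starved cells. A rise was called for 33 of 51 members in ADMA-treated against serum-starved cells, where 15.7% of all genes tested were called higher. No member was called lower by limma, where 13.8% of all genes were. There were 5 members with a negative difference, and for ORC3, CDT1 and PCNA the unadjusted p was under 0.05. The differences ran from -0.42 to 1.26 with a median of 0.42, and the median over all genes was 0.03. Arrays did not overlap for 38 members that were higher in ADMA-treated cells (24.3% of all genes tested) and for 3 that were lower, ORC3, PCNA and RPA2 (21.9%). These 33 genes and the 48 above are counted against the same 3 serum-starved arrays, so each comparison's values are given side by side below and are not independent.

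Most members were also lower in ADMA-treated than in control cells. In ADMA-treated against control cells, 47 of 51 members were lower, where 23.2% of all genes tested were called lower, and none was called higher, where 26.6% were. The 1 member with a positive difference was POLE, and no member was higher at an unadjusted p under 0.05. The median difference was -1.09, against 0.07 over all genes, and 48 members did not overlap, all lower, against 29.0% of all genes. ORC2, POLE, RFC1 and CLSPN were not called. By role, 13 of 14 licensing, 8 of 8 firing, 9 of 10 polymerase, 11 of 12 clamp and 6 of 7 fork genes were lower. SAM is the method the study used, there after a different filter on probes, so its gene counts are not comparable. Run here on 1 probe set per gene, SAM called 42 members lower in serum starvation (13.8% of all genes tested). It called 19 higher with ADMA against serum-starved cells (7.75%) and 36 lower with ADMA against control cells (8.39%). SAM ended the calls of ORC2, ORC5, ORC6, POLE, LIG1 and RPA2 in serum starvation. With ADMA against serum-starved cells it ended those of ORC6, MCM4, MCM5, DBF4, POLA1, POLA2, RFC3, RFC5, RNASEH2A, RPA1, RPA3, TIPIN, TIMELESS and WDHD1. Against control it ended those of ORC3, ORC5, ORC6, DBF4, POLA1, POLD1, POLD3, LIG1, RPA1, RPA3 and CHAF1A. With each array centred on its median signal, the share of all genes called higher and lower was 16.3% and 42.0% in serum-starved against control cells, 7.31% and 17.0% in ADMA-treated against serum-starved cells and 9.80% and 49.4% in ADMA-treated against control cells. That scaling shifted the median of all genes to -0.32, -0.09 and -0.44 in these comparisons, and the member medians were then -1.96, 0.31 and -1.60, with 51 members lower, 19 higher and 50 lower. Centring ended the calls with ADMA of ORC6, MCM5, GINS4, DBF4, POLA1, POLA2, RFC3, RFC5, RNASEH2A, RPA1, RPA3, TIPIN, TIMELESS and WDHD1, at adjusted p of 0.0105 to 0.133. Their differences stayed positive, from 0.20 (RPA1) to 0.53 (GINS4).

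**Figure D1:**
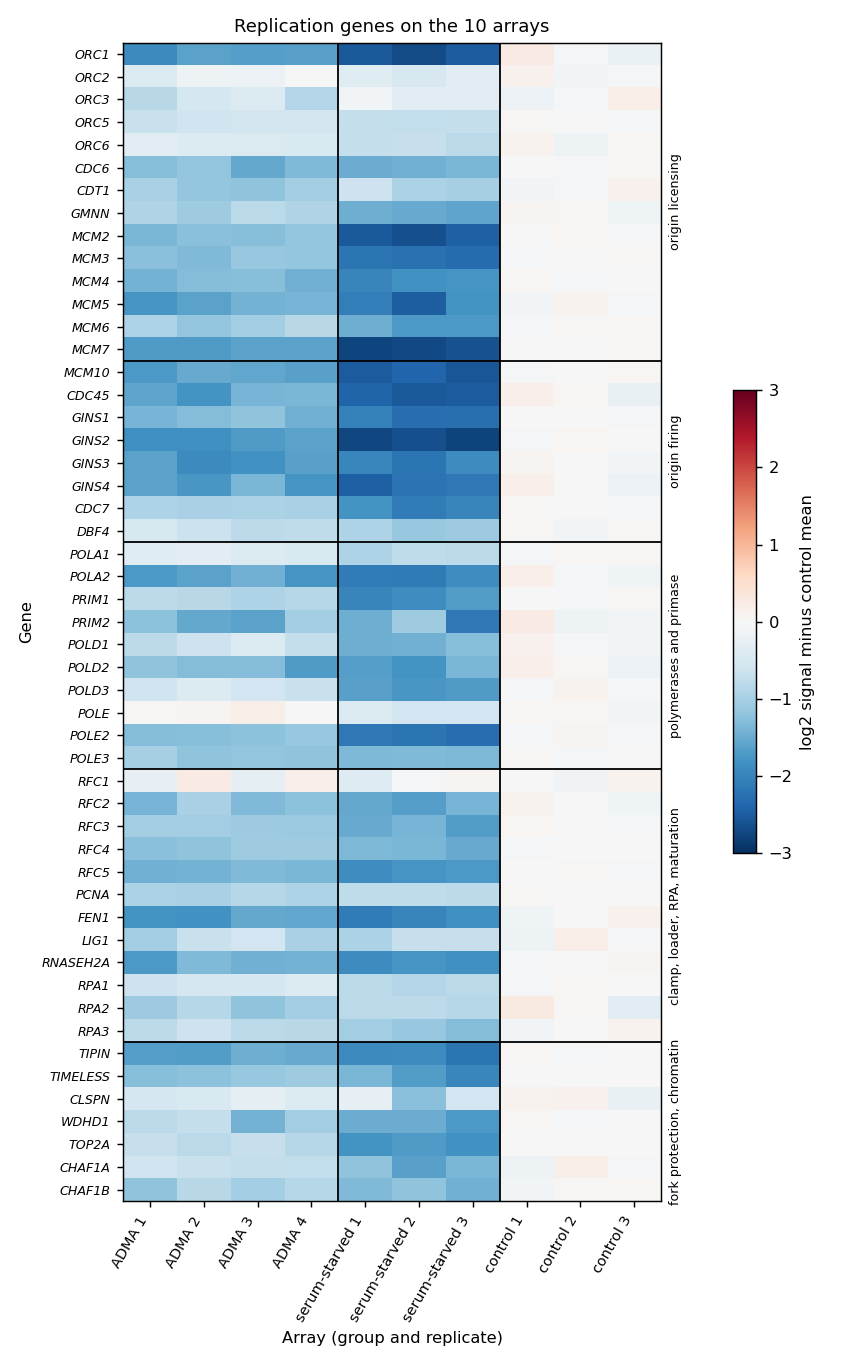
Log2 signal of each of the 51 members (down the page, by role) in the 4 ADMA-treated, 3 serum-starved and 3 control arrays (across), each gene set relative to its mean over the control arrays; the colour scale is in log2 units. For 38 genes every ADMA-treated array lies above every serum-starved array, and for 48 every ADMA-treated array lies below every control array.

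**Figure D2:**
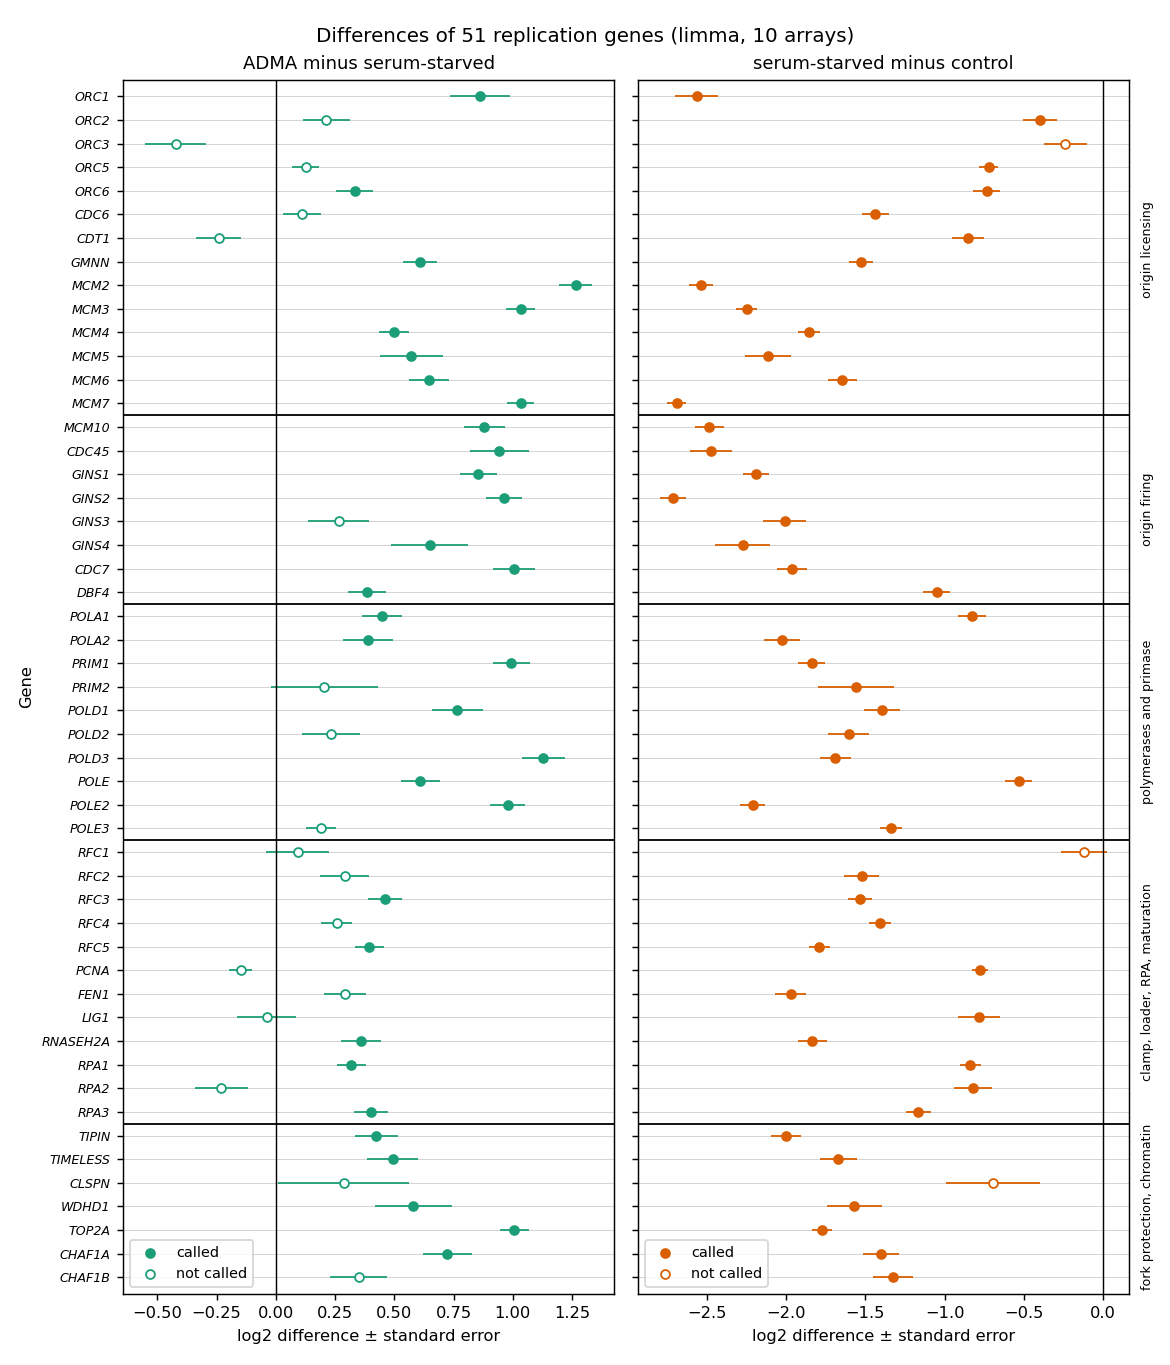
Log2 differences of the 51 members, by role, with standard errors from the limma fit as bars: ADMA-treated minus serum-starved cells (left) and serum-starved minus control cells (right), with filled points where called. The serum-starved minus control differences lie at -0.12 or below, and those of ADMA-treated minus serum-starved cells lie between -0.42 and 1.26.

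Because E2F octamers mark many S phase promoters, the RefSeq promoter windows (GRCh38.p14, 250 bases before to 50 after each start) of the members were searched for TTTGGCGC, TTTCCCGC, TTTGCCGC and TTTCGCGC on both strands, where hits may overlap each other. Windows were found for 45 members, and 21 of these (46.7%) held an octamer, against 6.57% of 10067 genes tested and 3.99% of 27305 genes in the table; by window, the shares were 36.8% of 57, 4.82% of 14610 and 3.31% of 35116. The CCAAT box, searched on both strands, was in 60% of member genes, 43.0% of genes tested and 39.7% of all genes, and TTTGAA, the core of the cell cycle homology element, searched likewise, was in 6.67%, 14.0% and 18.2%. The windows of 9 genes are shown from 100 bases before to 30 after the start, with octamers in capitals, 5′ to 3′ along the gene. Only windows that hold an octamer in this stretch are shown. The reference sequence is printed, not that of LoVo cells. MCM2, MCM6, MCM7 and GINS2 are helicase genes that fell in serum starvation and rose with ADMA. CDC6, CDT1 and PCNA fell in serum starvation and were not called with ADMA. POLE was not called in ADMA-treated against control cells, and ORC3 was not called in serum-starved against control cells.
MCM2 promoter, chr3:127598311-127598440, plus strand: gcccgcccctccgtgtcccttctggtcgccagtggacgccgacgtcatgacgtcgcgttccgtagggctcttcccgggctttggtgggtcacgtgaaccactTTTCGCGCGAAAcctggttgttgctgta
MCM6 promoter, chr2:135876414-135876543, minus strand: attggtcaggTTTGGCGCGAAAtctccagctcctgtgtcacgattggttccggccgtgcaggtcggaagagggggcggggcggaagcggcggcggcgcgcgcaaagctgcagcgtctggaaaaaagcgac
MCM7 promoter, chr7:100101368-100101497, minus strand: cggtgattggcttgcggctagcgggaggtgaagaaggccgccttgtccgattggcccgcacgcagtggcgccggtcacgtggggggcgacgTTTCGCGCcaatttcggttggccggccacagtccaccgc
GINS2 promoter, chr16:85688925-85689054, minus strand: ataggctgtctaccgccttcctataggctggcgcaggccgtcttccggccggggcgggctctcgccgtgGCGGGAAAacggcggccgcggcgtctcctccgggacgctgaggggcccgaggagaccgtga
CDC6 promoter, chr17:40287779-40287908, plus strand: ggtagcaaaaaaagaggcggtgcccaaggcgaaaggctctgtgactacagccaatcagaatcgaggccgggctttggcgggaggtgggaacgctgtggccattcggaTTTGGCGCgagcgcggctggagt
CDT1 promoter, chr16:88803689-88803818, plus strand: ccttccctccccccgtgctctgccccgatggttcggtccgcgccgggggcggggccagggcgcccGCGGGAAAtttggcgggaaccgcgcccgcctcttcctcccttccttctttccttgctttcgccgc
PCNA promoter, chr20:5126593-5126722, minus strand: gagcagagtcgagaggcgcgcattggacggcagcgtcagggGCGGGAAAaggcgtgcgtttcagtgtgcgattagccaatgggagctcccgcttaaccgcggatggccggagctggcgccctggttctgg
POLE promoter, chr12:132687313-132687442, minus strand: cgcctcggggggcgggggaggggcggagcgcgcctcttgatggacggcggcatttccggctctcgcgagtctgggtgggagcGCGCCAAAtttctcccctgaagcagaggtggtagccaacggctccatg
ORC3 promoter, chr6:87590035-87590164, plus strand: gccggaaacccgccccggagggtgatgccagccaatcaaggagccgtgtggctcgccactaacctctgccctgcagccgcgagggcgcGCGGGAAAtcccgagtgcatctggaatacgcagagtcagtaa
In MCM2 and MCM6 the capitals hold an octamer on each strand that overlap, read as 12 bases, and the other 7 printed stretches hold 1 octamer of 8 bases. The full windows of MCM6 and MCM7 hold further octamers upstream of the printed stretch. GINS2, CDT1, PCNA, POLE and ORC3 carry it in the reverse orientation. Every printed gene holds an octamer by the choice of windows, whether called higher with ADMA (as MCM2, MCM6, MCM7 and GINS2) or not (as CDC6, CDT1, PCNA and ORC3). The printed windows therefore cannot show whether an octamer goes with the rise. Over the 45 members with a window, the 21 with an octamer had a median of -1.64 in serum-starved against control cells (19 called lower) and 0.46 in ADMA-treated against serum-starved cells (14 called higher). The 24 without one had medians of -1.54 (23 lower) and 0.35 (14 higher), and against control the ADMA-treated medians were -1.09 with an octamer and -1.07 without. A match describes the letters in the window and is not evidence that a factor bound there.

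**Figure D3:**
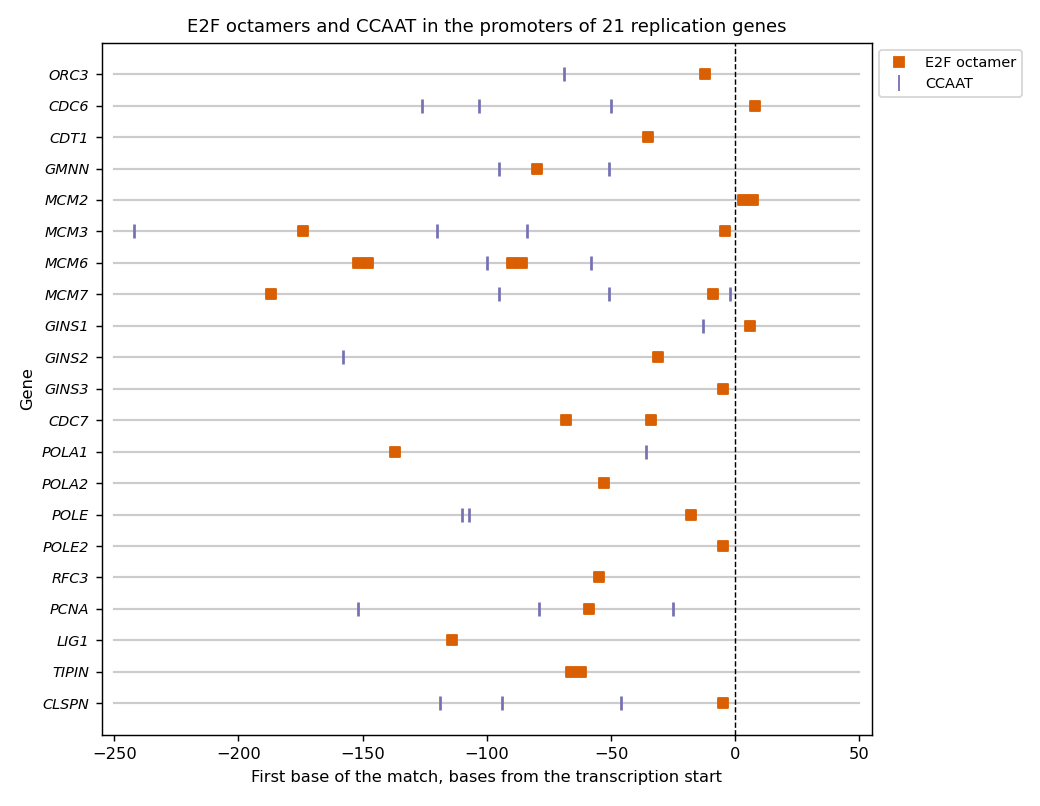
Position of E2F octamers (squares) and CCAAT boxes (ticks) in the RefSeq promoter windows of the 21 members with an octamer, in bases from the transcription start (dashed line), from 250 before to 50 after it. MCM3, MCM6, MCM7 and CDC7 hold octamers at separate places in the window.

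Of 14 licensing genes, 13 fell in serum starvation and 9 of 14 rose with ADMA, with median log2 differences of -1.59 and 0.54, and ORC3 was not called in serum starvation. Differences below are on the log2 scale, serum-starved minus control cells in serum starvation and ADMA-treated minus serum-starved cells with ADMA. For the counts by role, the shares of all genes tested were 27.3% called lower in serum starvation and 15.7% called higher with ADMA. All 6 subunits of the hexamer fell in serum starvation and rose with ADMA, with medians of -2.18 and 0.84. MCM7, a subunit of the hexamer, gave signals of 2740.0, 2721, 2895 and 2917 in ADMA-treated cells, 1309.6, 1364 and 1458 in serum-starved cells, and 8785, 8807 and 9045 in control cells. The 3 groups did not overlap, and the serum-starved arrays were the lowest. It was 6.45-fold lower in serum-starved cells (log2 difference -2.69, SE 0.0603, adjusted p = 2.19e-13 by limma) and 2.05-fold higher with ADMA (1.03, SE 0.0564, adjusted p = 1.03e-08). The further MCM7 probe set (208795_s_at), of similar mean signal (3032 against 3206), gave -2.30 and a smaller rise of 0.60, both called. MCM2, another subunit, had the largest rise with ADMA of the 51 genes. Its signals were 1675, 1819, 1801 and 1949 in ADMA-treated cells, 763, 704 and 793 in serum-starved cells, and 4302, 4562 and 4244 in control cells. The ADMA-treated arrays were all above the serum-starved and below the control arrays. It fell by 2.54 in serum starvation (adjusted p = 1.42e-12) and rose by 1.26 with ADMA (SE 0.0689, adjusted p = 1.03e-08). MCM3 read 2467, 2344, 2655 and 2639 in ADMA-treated cells, 1275, 1242 and 1180.4 in serum-starved cells, and 5630.2, 5938 and 6019 in control cells, again with no overlap. Its differences were -2.25 (adjusted p = 1.56e-12) and 1.03 (adjusted p = 2.53e-08). For MCM4, MCM5 and MCM6 the differences ran from -2.12 to -1.64 in serum starvation and from 0.50 to 0.65 with ADMA. The MCM5 call with ADMA was lost without serum-starved replicate 2, ADMA replicate 3 or ADMA replicate 4, at adjusted p of 0.0104 to 0.0189.

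In the origin recognition complex, 4 of 5 subunits fell in serum starvation and 2 of 5 rose with ADMA. ORC1, the subunit whose level follows the cell cycle, gave 291, 358, 349 and 355 in ADMA-treated cells, 191, 171 and 195 in serum-starved cells, and 1293, 1065 and 955 in control cells. Control arrays were the highest and serum-starved arrays the lowest, without overlap. ORC1 fell by 2.56 in serum starvation (SE 0.136, adjusted p = 5.17e-10) and rose by 0.86 with ADMA (adjusted p = 8.84e-05). In the rest of ORC, ORC5 and ORC6 had differences of -0.72 and -0.73 in serum starvation, both called. With ADMA they had 0.13 (not called) and 0.33, a call that was lost without ADMA replicate 1 or serum-starved replicate 3. ORC2 was called at -0.40 (adjusted p = 0.00445), and this was lost without control replicate 1, serum-starved replicate 1 or serum-starved replicate 2, at adjusted p of up to 0.0256. ORC3 was not called in serum starvation, at 453, 557, 604 and 436 in ADMA-treated cells, 757, 643 and 646 in serum-starved cells, and 712, 787 and 920.2 in control cells. Its serum-starved and control arrays overlapped, with a difference of -0.24 (95% interval -0.53 to 0.06, adjusted p = 0.141). All ADMA-treated arrays lay below all serum-starved arrays, at -0.42 (adjusted p = 0.0154, not called), and ADMA-treated cells were 1.58-fold lower than control cells (adjusted p = 0.000399). The licensing inhibitor GMNN fell by 1.53 in serum starvation and rose by 0.61 with ADMA (adjusted p = 2.84e-10 and 1.18e-05).

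CDC6, CDT1 and the clamp PCNA, described here after their values were seen, fell in serum starvation and were not called higher with ADMA. CDC6, the ATPase that joins ORC at origins, gave 1089, 1158, 910.3 and 1053 in ADMA-treated cells, 942, 963 and 1008 in serum-starved cells, and 2642, 2545 and 2694 in control cells. ADMA-treated and serum-starved arrays overlapped. The differences were -1.44 in serum starvation (adjusted p = 1.69e-09) and 0.11 with ADMA (95% interval -0.06 to 0.28, adjusted p = 0.285). For CDT1 the signals were 1503, 1318, 1285 and 1442 in ADMA-treated cells, 1927, 1538 and 1477 in serum-starved cells, and 2797, 2839 and 3245 in control cells. These overlapped between ADMA-treated and serum-starved cells, and the difference with ADMA was -0.24 (95% interval -0.44 to -0.04, adjusted p = 0.0522) against -0.85 in serum starvation. PCNA, the clamp that holds polymerases on DNA, gave 5254, 5246, 5633 and 5362 in ADMA-treated cells, 5977, 6002 and 5889 in serum-starved cells, and 10423, 10121 and 10102 in control cells. Every ADMA-treated array was below every serum-starved array. Its difference with ADMA was -0.15 (adjusted p = 0.0205, not called), while it fell by 0.78 in serum starvation (adjusted p = 4.64e-09). LIG1 and RPA2 had differences with ADMA of -0.04 (adjusted p = 0.83) and -0.23 (adjusted p = 0.118) and fell in serum starvation (-0.78 and -0.82).

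Firing genes fell in serum starvation without exception, and 7 of 8 rose with ADMA. The medians over these 8 genes were -2.23 and 0.87. GINS2, a GINS subunit, had the largest fall of the 51 genes, with signals of 955, 957, 1046 and 1118 in ADMA-treated cells, 518, 546 and 503 in serum-starved cells, and 3294, 3562 and 3417 in control cells. The groups were apart on every array. It was 6.56-fold lower in serum-starved cells (SE 0.0804 log2, adjusted p = 1.63e-12) and 1.95-fold higher with ADMA (adjusted p = 2.67e-07). MCM10, which joins the helicase at firing, gave 519, 600.2, 584 and 553 in ADMA-treated cells, 305, 327 and 287 in serum-starved cells, and 1657, 1699 and 1782 in control cells. ADMA-treated arrays lay between the others. It fell by 2.48 in serum starvation (adjusted p = 1.70e-11) and rose by 0.88 with ADMA (adjusted p = 2.30e-06). Its further probe sets were not called with ADMA, at 0.03 (223570_at, adjusted p = 0.937) and 0.49 (222962_s_at, adjusted p = 0.0594). CDC45, the helicase cofactor, gave 419.5, 359.9, 481 and 489 in ADMA-treated cells, 236, 219.6 and 222 in serum-starved cells, and 1389, 1318 and 1080.0 in control cells, also without overlap. Its differences were -2.48 (adjusted p = 6.38e-10) and 0.94 (adjusted p = 3.49e-05). The kinase CDC7 gave 652, 638, 644 and 639 in ADMA-treated cells, 362, 289.6 and 314 in serum-starved cells, and 1279, 1249 and 1216 in control cells, and its 4 ADMA-treated arrays were close to each other. CDC7 fell by 1.96 (adjusted p = 2.21e-10) and rose by 1.0 with ADMA (adjusted p = 8.59e-07). DBF4, its activating partner, had the differences -1.05 and 0.38, and the call with ADMA was lost without serum-starved replicate 2 (adjusted p = 0.0106). GINS1 fell by 2.19 and rose by 0.85. GINS3 alone of these genes was not called with ADMA (0.26, adjusted p = 0.11). GINS4 was called higher with ADMA (0.65, adjusted p = 0.00487), and this was lost without serum-starved replicate 1, serum-starved replicate 2, ADMA replicate 1 or ADMA replicate 3, at adjusted p of 0.0107 to 0.0248.

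All 10 polymerase genes fell in serum starvation and 7 of 10 rose with ADMA, with medians of -1.58 and 0.53. POLE2, a subunit of the leading-strand polymerase epsilon, gave 913, 919, 956 and 1019 in ADMA-treated cells, 502, 491 and 456 in serum-starved cells, and 2173, 2348 and 2192 in control cells. No group overlapped another, with differences of -2.21 (adjusted p = 1.04e-11) and 0.98 (adjusted p = 1.98e-07). POLD3, a subunit of the lagging-strand polymerase delta, gave 693, 791, 703 and 664 in ADMA-treated cells, 340.3, 314 and 322 in serum-starved cells, and 1012, 1135 and 1008 in control cells. ADMA-treated arrays came nearer to control than to serum-starved arrays on the log2 scale. It fell by 1.69 (adjusted p = 1.16e-09) and rose by 1.13 with ADMA (SE 0.0908, adjusted p = 3.32e-07). PRIM1, the catalytic primase subunit, gave 1211, 1177, 1089 and 1158 in ADMA-treated cells, 531, 567 and 652 in serum-starved cells, and 2074, 2027 and 2139.8 in control cells, likewise without overlap. Its differences were -1.84 (adjusted p = 1.22e-10) and 0.99 (adjusted p = 3.03e-07). POLA2, the B subunit of polymerase alpha, gave 577, 619.8, 701 and 553 in ADMA-treated cells, 440.3, 437 and 525 in serum-starved cells, and 2124, 1843 and 1746 in control cells. Every ADMA-treated array was above every serum-starved array. It fell by 2.03 in serum starvation (adjusted p = 8.89e-10) and rose by 0.39 with ADMA (adjusted p = 0.00816). The call with ADMA was lost without control replicate 2, serum-starved replicate 1 or 2, or ADMA replicate 2 or 3, at adjusted p of 0.0122 to 0.0407. Another POLA2 probe set (244575_at) gave -0.10 in serum starvation, 0.65 with ADMA and 0.55 in ADMA-treated against control cells, none called. POLA1 and POLD1, the catalytic subunits of polymerases alpha and delta, fell in serum starvation (-0.83 and -1.40) and rose with ADMA (0.45 and 0.77). PRIM2, POLD2 and POLE3 fell in serum starvation (-1.56, -1.61 and -1.34) but were not called with ADMA, at 0.21, 0.23 and 0.19 (adjusted p of 0.499, 0.14 and 0.0266).

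The arrays of POLE, the catalytic subunit of polymerase epsilon, were chosen for print after their values were seen. They gave 791, 817, 868 and 778 in ADMA-treated cells, 567, 516 and 516 in serum-starved cells, and 792, 793 and 729 in control cells. Serum-starved arrays were the lowest, and the ADMA-treated and control arrays overlapped. It fell by 0.53 in serum starvation (adjusted p = 7.40e-05), rose by 0.61 with ADMA (adjusted p = 3.99e-05) and differed from control by 0.08 in ADMA-treated cells (95% interval -0.10 to 0.25, adjusted p = 0.439). With arrays centred on their medians that last difference was -0.43 (adjusted p = 0.00296).

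Of the clamp, loader, maturation and single-strand binding genes, 11 of 12 fell in serum starvation and 5 of 12 rose with ADMA, with medians of -1.29 and 0.29. Whether this group differed from the other roles was not tested. FEN1, the flap nuclease, gave 1799, 1768, 2155 and 2104 in ADMA-treated cells, 1464, 1575 and 1751 in serum-starved cells, and 5730.3, 6209 and 6850.0 in control cells. ADMA-treated arrays were above serum-starved arrays without overlap. It fell by 1.97 in serum starvation (adjusted p = 2.05e-10), and its difference with ADMA was 0.29 (adjusted p = 0.0162, not called). RNASEH2A, the catalytic subunit of ribonuclease H2, which removes RNA from DNA, gave 1072, 1399, 1301 and 1329 in ADMA-treated cells, 947, 1042 and 981 in serum-starved cells, and 3385, 3495 and 3714 in control cells. Groups did not overlap. It fell by 1.84 (adjusted p = 2.81e-10) and rose by 0.36 with ADMA (adjusted p = 0.00353). The call with ADMA was lost without serum-starved replicate 1 or 3 or ADMA replicate 2 or 4, at adjusted p of up to 0.0181. RFC5, a subunit of the clamp loader, gave 1319, 1346, 1433 and 1389 in ADMA-treated cells, 983, 1058 and 1089 in serum-starved cells, and 3633, 3687 and 3503 in control cells. Every ADMA-treated array lay above the serum-starved and below the control arrays. Its differences were -1.79 (adjusted p = 1.61e-11) and 0.40 (adjusted p = 0.000156). RFC3, another loader subunit, gave 1377, 1384, 1342 and 1327 in ADMA-treated cells, 993, 1083 and 890.1 in serum-starved cells, and 2965, 2806 and 2785 in control cells, with the same order. It fell by 1.53 (adjusted p = 2.68e-10) and rose by 0.46 with ADMA (adjusted p = 0.000128), and its further passing probe set gave -1.96 and 0.45, both called. With the mean of all RFC3 probe sets, 1 of them under the filter, the differences were -0.56 (adjusted p = 0.0782) and -0.37 (adjusted p = 0.272). RPA3, the smallest subunit of the single-stranded DNA binding complex, gave 4586, 5081, 4454 and 4392 in ADMA-treated cells, 3802, 3554 and 3169 in serum-starved cells, and 7358, 7815 and 8417 in control cells. The groups were apart, at -1.17 (adjusted p = 6.15e-09) and 0.40 (adjusted p = 0.000506). RFC1, the large loader subunit, gave 1290.1, 1817, 1252 and 1702 in ADMA-treated cells, 1171, 1470.1 and 1603 in serum-starved cells, and 1511, 1420.0 and 1649 in control cells. Arrays of all 3 groups overlapped. The difference in serum starvation was -0.12 (95% interval -0.43 to 0.19, adjusted p = 0.478) and that with ADMA was 0.09 (95% interval -0.20 to 0.38). RPA1 fell by 0.84 and rose by 0.32. RFC2 fell by 1.52, with a difference of 0.29 with ADMA (adjusted p = 0.034, not called). RFC4 fell by 1.41 and passed the p threshold with ADMA (adjusted p = 0.00554) but its 1.19-fold difference was under 1.2.

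Of the fork genes, 6 of 7 fell and 5 of 7 rose with ADMA, with medians of -1.57 and 0.49. TIPIN, which with TIMELESS steadies the fork, gave 575, 565, 648 and 627 in ADMA-treated cells, 475, 484 and 395 in serum-starved cells, and 1831, 1760.4 and 1804 in control cells. No group overlapped another. It fell by 2.0 (adjusted p = 2.10e-10) and rose by 0.42 with ADMA (adjusted p = 0.00172). TIMELESS gave 991, 1028, 1100.3 and 1143 in ADMA-treated cells, 926, 751 and 623 in serum-starved cells, and 2426, 2406 and 2387 in control cells, with the same order. Its differences were -1.67 (adjusted p = 7.28e-09) and 0.49 (adjusted p = 0.00183), and the mean of its probe sets gave -0.083 with ADMA (adjusted p = 0.862). TOP2A, the topoisomerase that untangles sister DNA and peaks in G2 and mitosis, gave 2926, 2691, 2943 and 2611 in ADMA-treated cells, 1363, 1456 and 1351 in serum-starved cells, and 4687, 4823 and 4728 in control cells. Each ADMA-treated array was above the serum-starved and below the control arrays. It fell by 1.77 (adjusted p = 1.37e-11) and rose by 1.01 with ADMA (SE 0.0608, adjusted p = 2.65e-08). CHAF1A, a subunit of the chromatin assembly factor that works behind the fork, gave 981, 933, 893 and 888 in ADMA-treated cells, 639.7, 478 and 571 in serum-starved cells, and 1339, 1669.5 and 1441 in control cells. The groups were apart. Its differences were -1.40 (adjusted p = 3.44e-08) and 0.72 (adjusted p = 6.77e-05). WDHD1, which ties the helicase to polymerase alpha, gave 298, 319, 196 and 254 in ADMA-treated cells, 185, 185 and 157 in serum-starved cells, and 537, 498 and 529.7 in control cells. Every ADMA-treated array was above every serum-starved array. It fell by 1.57 (adjusted p = 1.26e-06) and rose by 0.58 with ADMA (adjusted p = 0.0096). The call with ADMA was lost when any array except ADMA replicate 3 was left out, at adjusted p of 0.0142 to 0.0393. CHAF1B, the partner of CHAF1A, fell by 1.32, with a difference of 0.35 with ADMA (adjusted p = 0.0285, not called). CLSPN, a checkpoint adaptor at the fork, was dim, at 86.6, 89.8, 102 and 92.5 in ADMA-treated cells, 104, 51.2 and 82.0 in serum-starved cells, and 132, 134 and 105 in control cells. Serum-starved and control arrays did not overlap, but the spread was wide and it was not called (-0.69, 95% interval -1.33 to -0.06, adjusted p = 0.0499).

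**Figure D4:**
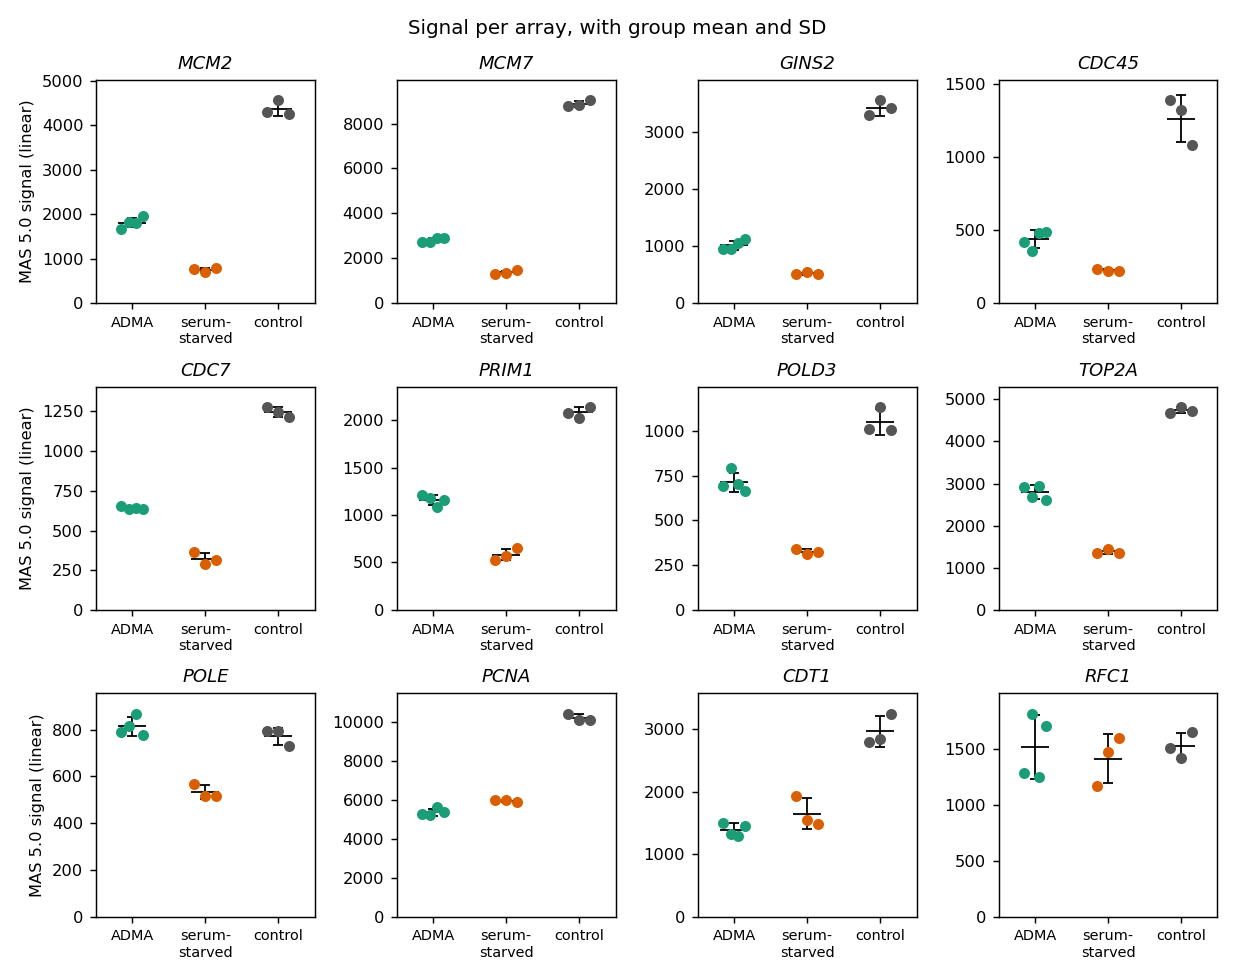
Signals of 12 members on a linear axis that starts at 0, with a point for each ADMA-treated (4), serum-starved (3) and control (3) array and lines for the group mean and SD. From MCM2 to TOP2A the ADMA-treated arrays lie between the serum-starved and control arrays, in PCNA they are the lowest, in CDT1 they overlap the serum-starved arrays, in POLE they overlap control and in RFC1 all 3 groups overlap.

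The 51 members had 95 probe sets, with 26 members on 1 alone, and 30 further probe sets passed the filter. These were called in a separate fit of 27304 probe sets. The share of all probe sets called there was not computed, so the counts have no background to be read against. In serum-starved against control cells 22 of these 30 were called lower and none higher. In ADMA-treated against serum-starved cells 12 were called higher and none lower. In ADMA-treated against control cells 22 were called lower and 1 higher, a GINS4 probe set (1554356_at, 0.88). The 3 further GINS4 probe sets were not called in serum starvation, at -0.63, 0.42 and 0.98. MCM4, over all its passing probe sets, had differences of -2.59 to -1.86 in serum starvation, all called lower. With ADMA they were 0.50 (the probe set used) to 0.92, all called higher. TOP2A by a different probe set (201291_s_at) read -2.27 in serum starvation and 1.36 with ADMA. FEN1 and GINS3, not called with ADMA above, were called by another probe set (204768_s_at, 0.67, and 218719_s_at, 0.63). RFC5 by 213734_at gave 0.08 in serum starvation, where 203210_s_at gave -1.76 and the probe set used gave -1.79. ORC2 by 235423_at gave 0.18, not called. CDT1 by 209832_s_at gave -1.29 in serum starvation and 0.02 with ADMA. Endings _s_at and _x_at mark probe sets that can read a related transcript. Without them 37 members could be tested, of which 35 fell in serum starvation (24.7% of 9362 genes), 20 rose with ADMA (13.4%) and 34 were lower with ADMA than in control (21%). The mean of all probe sets of a gene, those under the filter included, was tested for 50 members, of which 43 fell in serum starvation (23.7% of 10983 genes), 24 rose with ADMA (12.7%) and 42 were lower with ADMA than in control (19.9%). That mean ended the calls of ORC2, ORC5, GINS4, POLA2 and RFC3 in serum starvation, at adjusted p of 0.0659 to 0.41. With ADMA it ended those of MCM6, GINS2, GINS4, POLA2, POLD3, RFC3, RFC5, RPA1, TIMELESS, WDHD1 and CHAF1A, at adjusted p of 0.011 to 0.862, and FEN1 and GINS3 were then called higher. Against control it ended those of ORC5, GINS4, POLA2, POLD3 and TOP2A, and TOP2A changed sign, at 0.14 (adjusted p = 0.719) against -0.77.

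Other genes of the same processes were listed by function, with earlier results of these data known, so they are no independent support. Of all genes tested, 27.3% were called lower and 30.3% higher in serum starvation, and 15.7% higher with ADMA. Against control, 23.2% were called lower and 26.6% higher with ADMA. Of 9 tested genes in other initiation steps (of 11 listed), 6 fell in serum starvation, 2 rose with ADMA and 4 were lower with ADMA than in control. The rise with ADMA in this list (22.2%) was near the share of all genes, and its median difference was 0.03, against 0.03 over all genes. TICRR (treslin), which works with CDC45 loading, fell by 1.5 (adjusted p = 3.54e-06) and rose by 1.01 with ADMA (adjusted p = 0.000271), while ORC4 gave -0.03 and -0.02. Of 17 tested genes of fork and maturation (of 18 listed), 12 fell and 1 rose in serum starvation, 7 rose with ADMA, and 10 were lower and 1 higher with ADMA than in control. UHRF1, which brings the methyltransferase DNMT1 to new DNA, fell by 2.85 (adjusted p = 1.97e-12) and rose by 1.31 with ADMA. DSCC1, a subunit of an alternative clamp loader, fell by 2.58 and rose by 1.03. The gene that rose in serum starvation was POLD4, the smallest subunit of polymerase delta, by 1.53 (adjusted p = 1.69e-08). POLD4 did not share the direction of POLD1, POLD2 and POLD3, and with ADMA it gave 0.15 (adjusted p = 0.269) against serum-starved cells and was 1.69 above control. Genes that drive entry into S phase all fell in serum starvation (8 of 8), 6 of 8 rose with ADMA and 8 of 8 were lower with ADMA than in control. Cyclin A2 (CCNA2) fell by 2.41 and rose by 1.03, cyclin E2 (CCNE2) fell by 1.88 and rose by 1.1, and E2F1 fell by 0.94 with 0.30 with ADMA (adjusted p = 0.133, not called).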

How the data were processed

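RNA of LoVo cells was hybridised to 10 HG-U133 Plus 2.0 arrays (Affymetrix). The deposited values are MAS 5.0 intensity values made by the authors, 1 per probe set on a linear scale, with every array scaled to the same 2% trimmed mean. Array values carry no read depth, and the number of arrays limits their precision. Of 54675 probe sets, 62 are controls, and 41091 had 1 gene symbol, 1801 several and 11721 none in the platform annotation. The log2 of each intensity was taken with no pseudocount. A gene was tested if its brightest probe set had a mean signal of at least the median over all probe sets (76.3), and a probe set was called under background below the 95th percentile of 27 Bacillus control probe sets on that array. Groups came from the sample labels and were compared with limma 3.58.1 (R 4.3.3; lmFit, and eBayes with its trend option) in a model that held all 10 arrays. Calls needed a Benjamini-Hochberg adjusted p, over 12342 genes, under 0.01 together with a change of 1.2-fold or more. Intervals are 95% and come from that model. The code was tested on simulated data. The labels do not say whether replicate numbers pair the arrays, and the main model took them as unpaired. Deviations from group means correlated at -0.07 to 0.10 between arrays of the same number, which cannot settle it.

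Values per array are given by a rule: in each role, the 3 members with the largest absolute difference in serum-starved against control cells, the 3 in ADMA-treated against serum-starved cells, and any member not called in serum starvation or called against most of its role (none was). CDC6, CDT1, PCNA and POLE were added after their values were seen. The members, lists and tests were chosen with earlier results of these data known. Promoters are RefSeq windows on GRCh38.p14, and 45 of 51 members matched. Alternatives were other normalizations, filters, pseudocount, thresholds and probe set choices, SAM, array weights, a replicate block and leaving out each array. Promoters and figures used Python 3.11.15, the plots matplotlib 3.10.9.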

Additional observations from a re-analysis of the deposited data

Results flagged for a closer look

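All 51 members were checked for an outlying array among the 4 ADMA-treated arrays. For 2 of them, 1 array stood apart by Dixon's ratio, the gap of the furthest array to its nearest neighbour over the range of the group. By chance about 1 group in 20 passes, so flags of this kind are to be expected among 51 members. For ORC1 the ratio was 0.871, with ADMA replicate 1 at 291, below 349, 355 and 358. For POLE3 the ratio was 0.961, with ADMA replicate 1 at 2167, above 1870.1, 1874 and 1881.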

How the results depend on the processing

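By limma, 48 members were lower in serum-starved than in control cells, 33 higher in ADMA-treated than in serum-starved cells and 47 lower in ADMA-treated than in control cells. With each array left out in turn these counts ranged from 47 to 48, from 28 to 32 and from 47 to 47, and the count of members lower with ADMA than in serum starvation ranged from 0 to 1 (ORC3, without ADMA replicate 3). The count of members higher with ADMA was 19 with arrays centred on their medians (7.31% of all genes), 19 with SAM (7.75%), 20 of 37 without probe sets of shared-sequence endings (13.4%), 24 of 50 with the mean of all probe sets (12.7%) and 6 at a fold of at least 2 (1.87%), and that of members lower with ADMA than in control was 28 at a fold of at least 2 (4.40%). ORC3 alone was lower with ADMA than in serum starvation with centred arrays (1 member) and at an adjusted p under 0.05 (1 member). SAM called 0 members higher in serum starvation, 0 lower with ADMA against serum starvation and 0 higher with ADMA against control. Higher thresholds and fewer probe sets lower a count by construction, and for the other settings the cause was not tested. ORC6 lost its call with ADMA without ADMA replicate 1 or serum-starved replicate 3, at adjusted p of 0.0108 to 0.0176. FEN1 was called higher with ADMA without ADMA replicate 2 or serum-starved replicate 3 (adjusted p of 0.00837 to 0.00979), as was RFC4 without ADMA replicate 1, ADMA replicate 2 or serum-starved replicate 1.

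The labels do not say whether replicate numbers pair the arrays. A fit with the replicate block, in which ADMA replicate 4 alone carries its number, called 48, 29 and 47 members in the 3 comparisons. The shares of all genes tested in these directions were 27.1%, 13.3% and 22.5%. That fit changed 4 calls, all in ADMA-treated against serum-starved cells.

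Signs reversed for some members, among them 4 that limma had called with the probe set used: RFC3 (0.46) and TIMELESS (0.49) in ADMA-treated against serum-starved cells, and POLA2 (-1.64) and TOP2A (-0.77) in ADMA-treated against control cells. In ADMA-treated against serum-starved cells, centring gave CDC6 -0.0046 and RFC1 -0.024, averaging all probe sets of a gene gave ORC5 -0.38, RFC1 -0.011, RFC3 -0.37 and TIMELESS -0.083, and the block gave LIG1 0.015. Over the fits that left out 1 array, RFC1 ranged from -0.038 to 0.19, LIG1 from -0.13 to 0.033 and PRIM2 from -0.090 to 0.45. In ADMA-treated against control cells, RFC1 gave 0.014 with quantile normalization and -0.12 to 0.058 with an array left out, POLE gave -0.43 with centring, ORC2 gave 0.067 and TOP2A 0.14 with the mean of probe sets, and POLA2 gave 0.55 without shared endings. In serum-starved against control cells RFC1 ranged from -0.22 to 0.011 with an array left out. For the 4 called members, the probe set entering the mean under the filter had a mean signal of 7.8 (TOP2A), 21.6 (RFC3) or 34.1 (TIMELESS). The passing TOP2A probe sets gave -0.77 and -0.91 against control, and those of RFC3 gave 0.46 and 0.45 with ADMA. Without shared endings POLA2 was read from 244575_at, at a mean signal of 101 and an SE of 0.43. Causes of these reversals were not tested.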
